A study of Danio rerio with 48 samples.

Results

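This is an account of the whole interval from 2.25 to 5.25 h post-fertilization (hpf) in zebrafish of the TL strain, over which the embryo passes from its maternal mRNA store to transcription of its own genome. It rests on 12 of the 48 single-embryo libraries of the series: TL embryos 1 to 6 at 5.25 hpf and TL embryos 1 to 6 at 2.25 hpf, chosen by strain and stage alone. At each stage embryos 4 to 6 belonged to biological replicate 2 and embryos 1 to 3 to biological replicate 1, and the replicate was a block in the test. The other 36 libraries were TL embryos at 3.25 and 4.25 hpf and AB embryos at all 4 stages, 6 embryos per strain and stage. All embryos came from natural spawning, developed at 28.5 °C and were lysed in Trizol as whole embryos, with no treatment or mutation named. CEL-seq2 was used, a method that barcodes each RNA sample and counts reads near the 3′ end of transcripts. Every stage carried its own library index, so stage and index cannot be told apart. How many clutches a replicate drew on is not stated, so p-values measure the spread between these embryos.

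In the cleavage embryo of the zebrafish, the genome is largely silent and proteins are made from mRNAs that the mother loaded into the egg. Around the mid-blastula transition the activators Pou5f3, Nanog and SoxB1 proteins open the embryonic genome, while miR-430 microRNAs and deadenylase adaptors promote decay of maternal mRNAs. By the late blastula stage the cells have begun to separate into an outer enveloping layer, a yolk syncytial layer at the yolk surface, and the deep cells in which Nodal, Bmp, Fgf and Wnt signals lay out the germ layers.

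Total counts per library were 7931494 ± 2579706 at 5.25 hpf and 9544583 ± 2817206 at 2.25 hpf (SD, n = 6 each). An exact permutation test gave a 2-sided p of 0.325, or 0.215 with labels exchanged within replicates, where the smallest possible values are 0.00216 and 0.005. The ID ENSDARG00000080337 took 27.7 ± 10.2% of counts at 5.25 hpf and 23.6 ± 8.08% at 2.25 hpf (exact permutation p = 0.435) and was left out of all totals. Levels are CPM, counts scaled to a common total of the remaining counts and by TMM factors. They are relative to the other genes, so a change in the total mRNA of an embryo would not show in them. Of 19 matched markers of differentiated tissues, 18 were too low to test. The exception, the neuronal ELAVL3, was called higher at 5.25 hpf (log2 fold change 6.7), with 2.61 to 10.6 CPM there. It passed the filter on low counts only through 5.25 hpf embryos, which fixes its direction. The summed level of the list was 17.8 ± 5.46 CPM at 5.25 hpf and 4.2 ± 2.21 CPM at 2.25 hpf. With no filter on low counts 15 were tested, of which 4 were called higher and 1 lower at 5.25 hpf. Of all 23764 genes tested in that setting, 1977 were called higher and 1738 lower. In whole embryos, fewer cells of a type and less RNA per cell cannot be told apart.

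Of 11849 genes tested with edgeR's quasi-likelihood test, 2589 (21.8%) changed, by a Benjamini-Hochberg adjusted p under 0.05 and a log2 fold change of at least 1 in size. There were 1114 genes higher at 5.25 hpf (9.4% of those tested) and 1475 lower (12.4%). The risen genes moved further: their median log2 fold change was 2.25, against -1.45 for the fallen genes and 0.00196 over all genes tested. A log2 fold change of 4 or more was reached by 389 risen genes and of -4 or less by 4 fallen genes. At the threshold itself, 121 risen genes lay between 1 and 1.1 and 166 tested genes between 0.9 and 1, with 189 and 188 on the falling side. The split depended on the scaling, the tool and the count filter. TMM factors gave 43.0% of the changed genes as risen; library totals alone gave 867 risen and 2074 fallen genes, or 29.5% risen. The median over all genes then shifted to -0.223. Rises outnumbered falls with DESeq2 (1889 risen and 1525 fallen, 55.3% risen) and with no filter on low counts (1977 and 1738, 53.2% risen). Both of these settings tested more genes.

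**Figure D1:**
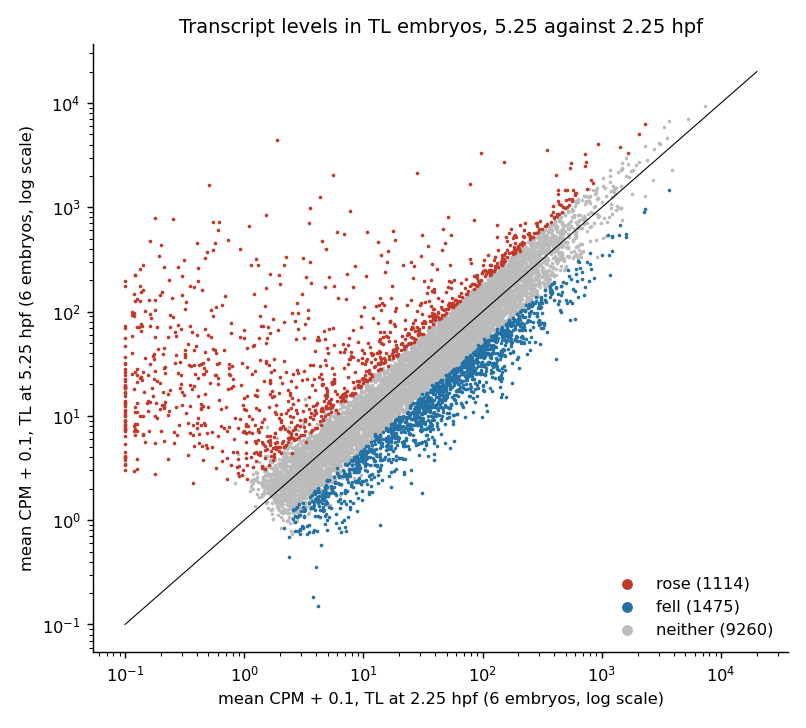
Mean level of each tested gene over 6 TL embryos at 2.25 hpf (x axis) and 5.25 hpf (y axis), as CPM + 0.1 on log scales, with a line of equal level. The 1114 genes called higher at 5.25 hpf lie above the line and the 1475 called lower lie below it and closer to it.

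Most risen genes had more than 3 counts in at least 1 embryo at 2.25 hpf, which does not show them present in all 6. Of the 1114 risen genes, 168 had at most 3 counts in every 2.25 hpf embryo, 55 of them at 0. The other 946 were above that level in at least 1 embryo. A mean of at least 10 CPM at 2.25 hpf was reached by 404 of the 1114. A filter on low counts fixes part of this: 304 tested genes passed it only through 5.25 hpf embryos and all of them rose, while 19 passed it only through 2.25 hpf embryos. Loss was partial in the 3 h, since 4 of the 1475 fallen genes had at most 3 counts in every 5.25 hpf embryo and 0 were absent from all of them. The median fallen gene kept 36.1% of its 2.25 hpf CPM, a value relative to the other genes and not an amount per embryo. Of the 100 most abundant genes at 2.25 hpf, 58 were still among the top 100 at 5.25 hpf. Of the 100, 16 fell and 7 rose, beside 12.4% and 9.4% of all genes tested.

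The share of each library held by the changed genes shows the turnover as a whole. The 1114 risen genes took 5.85 ± 0.362% of counts at 2.25 hpf, 6.22 ± 0.171% at 3.25 hpf, 9.86 ± 1.21% at 4.25 hpf and 18.9 ± 2.56% at 5.25 hpf. The 1475 fallen genes held 15.2 ± 0.399%, 14.6 ± 0.202%, 10.6 ± 1.03% and 4.73 ± 1.04% at the same stages. The end stages chose these genes, so their shares there are a description; the 3.25 and 4.25 hpf embryos and the AB embryos were not used to choose them. In AB embryos the same sets held 6.0, 6.59, 10.4 and 19.3%, and 15.0, 14.1, 10.2 and 5.0%, of counts in the order of the stages. The 15506 IDs with at most 3 counts in every 2.25 hpf embryo, whether tested or not, together reached 1.06 ± 0.291% of counts at 5.25 hpf, so genes above that level at 2.25 hpf made up most of the gain.

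**Figure D2:**
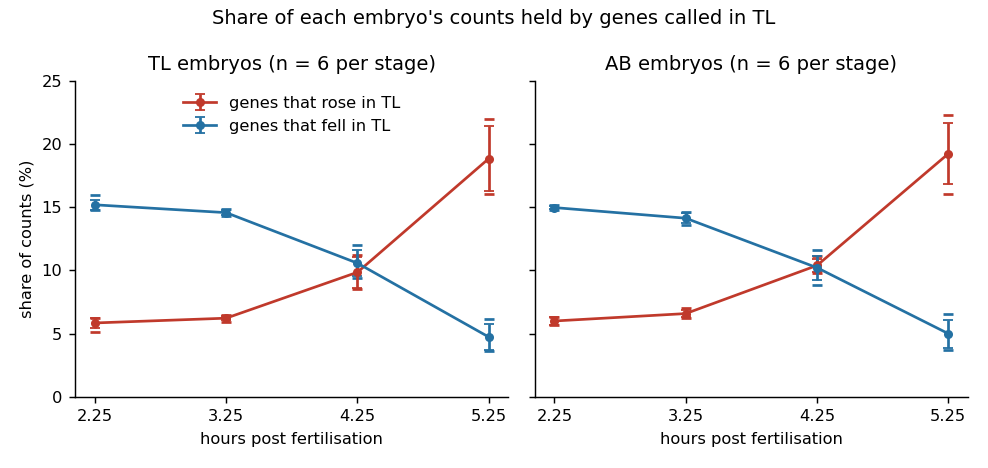
Share of counts, in percent, held by the 1114 risen and the 1475 fallen genes at each stage in hpf, in TL and in AB embryos; points are means and bars SD, n = 6. In TL the risen genes reach 18.9% and the fallen genes hold 4.73% at 5.25 hpf.

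The 10 largest rises with a symbol were stm, krt92, tbx16, cldne, inka1a, noto, asb11, apela, hmgn6 and si:ch211-125o16.4. Below, 3 values of a group are its lowest, median and highest embryo. Log2 fold changes are given ± SE, and adjusted p-values come from edgeR's quasi-likelihood test. The SE was not estimated directly. It is the size of the log2 fold change over the square root of that test's F statistic. For genes near 0 counts in a stage it can understate the spread of the fold. stm, starmaker, known for its part in ear stone formation, had 83.2, 194 and 373 CPM at 5.25 hpf, against 0 counts in each embryo at 2.25 hpf (at least 452-fold higher, adjusted p = 5.42e-10). At least N-fold means the mean level over the level of 3 counts per library. The level of tbx16, a T-box factor of the mesoderm, was 418, 686 and 1311 CPM at 5.25 hpf and 0, 0.0642 and 0.184 CPM at 2.25 hpf (ratio 5.25 over 2.25 hpf of 9413, 95% counting interval 3676 to 34550, adjusted p = 2.74e-14). apela is the secreted peptide that signals through apelin receptors. It had 204, 272 and 381 CPM at 5.25 hpf, against 0, 0 and 0.158 CPM at 2.25 hpf (ratio 5.25 over 2.25 hpf of 5926, 95% counting interval 1640 to 48940, adjusted p = 3.01e-13). For genes with at most 3 counts in every 2.25 hpf embryo the ratio of summed counts is given with an interval for counting error alone; duplicate removal is not stated in the sources used here. noto is a homeobox factor of the notochord lineage. Levels were 124, 238 and 289 CPM at 5.25 hpf, against 0, 0 and 0.128 CPM at 2.25 hpf (ratio 5.25 over 2.25 hpf of 9787, 95% counting interval 1756 to 386600, adjusted p = 1.63e-13). inka1a had 389, 479.5 and 569 CPM at 5.25 hpf, against 0, 0.0460 and 0.158 CPM at 2.25 hpf (ratio 5.25 over 2.25 hpf of 7169, 95% counting interval 2452 to 34770, adjusted p = 8.82e-15). In all 10 genes the lowest 5.25 hpf embryo was above the highest 2.25 hpf embryo. These genes were chosen as the largest rises in the same embryos, so their separation is a description. Over all genes tested, groups without overlap made up 11.2% (higher) and 12.5% (lower).

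The activators nanog and pou5f3 were present at 2.25 hpf and gained further. Of 10 tested genes on the activator list, 6 rose and 1 fell, with a median log2 fold change of 1.17 beside 0.00196 over all genes tested. The count filter was passed only through 5.25 hpf embryos by 1 of the 6 risen genes. For this list and those below, the shares over all genes tested were 9.4% risen and 12.4% fallen. nanog, the homeobox activator, had 1179, 1474 and 1774 CPM at 5.25 hpf, against 266, 454 and 509 CPM at 2.25 hpf (log2 fold change 1.82 ± 0.16, adjusted p = 1.47e-07). pou5f3 is the POU-domain partner of Nanog. It had 419.5, 555 and 737 CPM at 5.25 hpf, against 164, 243 and 278 CPM at 2.25 hpf (log2 fold change 1.23 ± 0.16, adjusted p = 9.57e-06). The pou5f3 call ended with library totals only (log2 fold change 0.998) and without biological replicate 1 (0.99). foxh1 is the Forkhead partner of Smad2 in Nodal signalling. Levels were 295, 361 and 494 CPM at 5.25 hpf, against 124, 186 and 203 CPM at 2.25 hpf (log2 fold change 1.11 ± 0.17, adjusted p = 4.71e-05). That call ended in 3 settings: the log2 fold change of foxh1 was 0.999 without TL 2.25 hpf embryo 1, 0.84 without biological replicate 1 and 0.88 with library totals only.

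SoxB1 genes showed a maternal and a zygotic member side by side. sox19a, a SoxB1 gene read from the embryonic genome, had 209.9, 261 and 331 CPM at 5.25 hpf, against 0, 0 and 1.08 CPM at 2.25 hpf (log2 fold change 10.60 ± 0.48, adjusted p = 4.08e-11). Its maternal counterpart sox19b did not pass the test, with 92.9, 151 and 368 CPM at 5.25 hpf against 131, 201 and 352 CPM at 2.25 hpf (log2 fold change -0.20 ± 0.22, adjusted p = 0.496). The level of SOX3, a further SoxB1 gene, was 204, 279 and 420.1 CPM at 5.25 hpf and 0.686, 3.65 and 6.97 CPM at 2.25 hpf (log2 fold change 6.51 ± 0.40, adjusted p = 2.19e-09). The sox19a groups were separate, with 5 of 6 embryos at 0 counts at 2.25 hpf, whereas the sox19b ranges overlapped along most of their length. By replicate, the log2 fold change of sox19a was 13.88 in replicate 1 and 9.31 in replicate 2, further apart than its SE. TBPL2 is the TATA-binding protein paralogue of the oocyte. It had 40.0, 73.2 and 81.7 CPM at 5.25 hpf, against 276, 294 and 461 CPM at 2.25 hpf (log2 fold change -2.16 ± 0.19, adjusted p = 1.31e-07). TBP itself had 444, 566 and 769.8 CPM at 5.25 hpf against 358, 489 and 532 CPM at 2.25 hpf and did not pass the test (log2 fold change 0.31 ± 0.14, adjusted p = 0.0758).

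Nodal ligands and their feedback inhibitors rose, while the maternal co-ligand stayed short of the fold threshold and the transducer did not pass the test. On this list 6 of 8 tested genes rose (median log2 fold change 3.07, beside 0.00196 over all genes tested); 2 of the 8 passed the count filter only through 5.25 hpf embryos. ndr1, a Nodal ligand, had 53.5, 66.9 and 88.5 CPM at 5.25 hpf, against 3.54, 4.41 and 8.89 CPM at 2.25 hpf (log2 fold change 3.75 ± 0.24, adjusted p = 4.28e-09). ndr2 is another Nodal ligand. It had 11.9, 14 and 23.8 CPM at 5.25 hpf, against 0.445, 0.778 and 2.21 CPM at 2.25 hpf (log2 fold change 3.92 ± 0.34, adjusted p = 1.47e-07). Neither ligand overlapped between the stages, and ndr1 was already at 3.54 CPM or more in every 2.25 hpf embryo. The level of lft1, a Lefty inhibitor of Nodal, was 19.5, 43.8 and 63.1 CPM at 5.25 hpf and 0.0919, 0.307 and 0.889 CPM at 2.25 hpf (log2 fold change 6.91 ± 0.42, adjusted p = 1.79e-09). lft2 is the other Lefty gene. Levels were 52.7, 75.2 and 95.1 CPM at 5.25 hpf, against 0, 0 and 0.229 CPM at 2.25 hpf (ratio 5.25 over 2.25 hpf of 1617, 95% counting interval 447 to 13360, adjusted p = 5.09e-12). Both inhibitors stood at or near 0 in the 2.25 hpf embryos. tdgf1, the co-receptor that Nodal needs, had 474, 696 and 872 CPM at 5.25 hpf, against 118, 131 and 149.9 CPM at 2.25 hpf (log2 fold change 2.39 ± 0.14, adjusted p = 1.49e-09). The maternal co-ligand gdf3 had 762, 1114 and 1684 CPM at 5.25 hpf, against 562, 722 and 882 CPM at 2.25 hpf, with overlapping ranges and a log2 fold change of 0.67 ± 0.18 that did not reach 1 (adjusted p = 0.00747). SMAD2, the signal transducer, had 148, 224 and 323 CPM at 5.25 hpf and 165, 265 and 340.3 CPM at 2.25 hpf (log2 fold change -0.16 ± 0.18, adjusted p = 0.523).

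Most of the tested endoderm factors rose. Of 9 tested endoderm genes, 8 rose (median log2 fold change 6.73, beside 0.00196 over all genes tested), and 5 of the 9 had passed the filter only through 5.25 hpf embryos, which fixes their direction. mixl1, a homeobox factor downstream of Nodal, had 81.8, 204 and 399 CPM at 5.25 hpf, against 3.68, 4.9 and 6.49 CPM at 2.25 hpf (log2 fold change 5.34 ± 0.28, adjusted p = 2.44e-10). sox32 is the Sox factor that commits cells to endoderm. It had 30.4, 65.9 and 126 CPM at 5.25 hpf, against 0, 0.0572 and 0.551 CPM at 2.25 hpf (log2 fold change 8.66 ± 0.41, adjusted p = 8.81e-11). The level of foxa3, a Forkhead factor of the endoderm, was 93, 144 and 276 CPM at 5.25 hpf and 0, 0 and 0.158 CPM at 2.25 hpf (ratio 5.25 over 2.25 hpf of 3794, 95% counting interval 1050 to 31340, adjusted p = 6.32e-14). The 3 genes separated the stages in every embryo. GATA5 is a zinc finger factor of heart and endoderm. Levels were 12.5, 23.9 and 48.6 CPM at 5.25 hpf, against 0, 0 and 0.128 CPM at 2.25 hpf (ratio 5.25 over 2.25 hpf of 635, 95% counting interval 175 to 5254, adjusted p = 1.02e-09). FOXA2, a Forkhead factor of endoderm and axial mesoderm, had 7.01, 16.5 and 33.1 CPM at 5.25 hpf, against 0, 0 and 0.792 CPM at 2.25 hpf (log2 fold change 6.73 ± 0.54, adjusted p = 5.41e-08). A Forkhead gene with a maternal level, foxa, had 93.6, 159 and 199.8 CPM at 5.25 hpf against 22.7, 34.5 and 63.8 CPM at 2.25 hpf (log2 fold change 1.97 ± 0.26, adjusted p = 1.23e-05).

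Dorsal forerunner cells, a small cluster at the dorsal margin, later build the ciliated organ that sets left-right asymmetry. Of their markers 5 were tested and 4 rose (9.4% of all genes tested rose), 3 of the 5 having passed the filter through the 5.25 hpf embryos alone. vgll4l is a cofactor gene expressed in these cells. It had 256, 326 and 475 CPM at 5.25 hpf, against 0, 0.0772 and 0.222 CPM at 2.25 hpf (ratio 5.25 over 2.25 hpf of 3954, 95% counting interval 1544 to 14520, adjusted p = 4.28e-14). tbxta is the Brachyury homologue, also expressed in the whole margin. Levels were 25.8, 75.4 and 133 CPM at 5.25 hpf, against 0, 0 and 0.222 CPM at 2.25 hpf (ratio 5.25 over 2.25 hpf of 3572, 95% counting interval 640.5 to 141100, adjusted p = 1.55e-11). mid1ip1a had 238, 599 and 865 CPM at 5.25 hpf, against 8.0, 16.4 and 30.5 CPM at 2.25 hpf (log2 fold change 5.07 ± 0.35, adjusted p = 7.56e-09). None of these ranges overlapped; sox32 and gdf3, which are also on this list, are given above.

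Organizer genes mark the dorsal side of the embryo. Among organizer genes 11 of 12 tested members rose, with a median log2 fold change of 8.51 (7.02 with genes absent at 2.25 hpf set to their bound) beside 0.00196 over all genes tested; 10 of the 12 passed the filter only through 5.25 hpf embryos. dharma, the homeobox gene switched on by maternal β-catenin, had 12.2, 15.4 and 33.4 CPM at 5.25 hpf, against 0 counts in each embryo at 2.25 hpf (at least 43.9-fold higher, adjusted p = 1.77e-07). GSC is Goosecoid, a homeobox repressor of the organizer. It had 93.5, 207 and 243 CPM at 5.25 hpf, against 0.385, 1.74 and 4.75 CPM at 2.25 hpf (log2 fold change 6.72 ± 0.37, adjusted p = 5.95e-10). The level of chrd, the Bmp antagonist Chordin, was 27.4, 50.3 and 93.1 CPM at 5.25 hpf and 0, 0 and 0.463 CPM at 2.25 hpf (ratio 5.25 over 2.25 hpf of 887, 95% counting interval 303 to 4307, adjusted p = 5.66e-10). Every 5.25 hpf embryo lay above every 2.25 hpf embryo for these genes, with the 2.25 hpf counts of chrd at 3 or fewer. dkk1b is a secreted Wnt inhibitor. Levels were 17.6, 28.4 and 45.9 CPM at 5.25 hpf, against 0 counts in each embryo at 2.25 hpf (at least 73.2-fold higher, adjusted p = 1.29e-08). foxd5, a Forkhead repressor, had 143, 177 and 210.0 CPM at 5.25 hpf, against 0, 0 and 0.114 CPM at 2.25 hpf (ratio 5.25 over 2.25 hpf of 4044, 95% counting interval 1119 to 33400, adjusted p = 4.28e-14). admp is an anti-dorsalizing Bmp-like ligand made in the organizer. It had 49.9, 64 and 101 CPM at 5.25 hpf, against 0, 0.295 and 0.827 CPM at 2.25 hpf (log2 fold change 7.31 ± 0.42, adjusted p = 8.55e-10). The same separation held for these, and dkk1b had no counts in any 2.25 hpf embryo.

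Ventral genes and Bmp targets rose in the same embryos. There, 11 of 15 tested genes rose and 1 fell (median log2 fold change 5.18 (5.16 with genes absent at 2.25 hpf set to their bound), beside 0.00196 over all genes tested), and 6 of the 15 passed the filter only through 5.25 hpf embryos. vox, a homeobox repressor of organizer genes, had 328, 712 and 1063 CPM at 5.25 hpf, against 0.222, 0.422 and 0.686 CPM at 2.25 hpf (log2 fold change 10.64 ± 0.24, adjusted p = 1.72e-14). The level of vent, its partner repressor, was 42.6, 89.7 and 173 CPM at 5.25 hpf and 0, 0.0572 and 0.222 CPM at 2.25 hpf (ratio 5.25 over 2.25 hpf of 1643, 95% counting interval 562 to 7971, adjusted p = 8.67e-12). ID1 is an inhibitor of bHLH factors and a direct Bmp target. It had 2798, 3259 and 3673 CPM at 5.25 hpf, against 42.8, 88 and 181 CPM at 2.25 hpf (log2 fold change 5.18 ± 0.30, adjusted p = 1.14e-09). ID1 was the most abundant of them and was at 42.8 CPM or more in each 2.25 hpf embryo. bmp7a is a Bmp ligand. Levels were 20.4, 40.2 and 119 CPM at 5.25 hpf, against 0.276, 0.415 and 0.618 CPM at 2.25 hpf (log2 fold change 7.05 ± 0.44, adjusted p = 2.79e-09). szl, Sizzled, a secreted inhibitor of the proteases that cleave Chordin, had 5.18, 10.9 and 46.4 CPM at 5.25 hpf, against 0 counts in each embryo at 2.25 hpf (at least 35.8-fold higher, adjusted p = 6.18e-06). TL 5.25 hpf embryo 3 held the highest szl value and the other 5 lay between 5.18 and 13.5 CPM. TP63, an epidermal transcription factor, was the exception: it had 3.04, 3.55 and 5.89 CPM at 5.25 hpf against 10.3, 12.9 and 15.6 CPM at 2.25 hpf (log2 fold change -1.62 ± 0.28, adjusted p = 1.57e-04).

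At the margin, apelin receptors rose together with their ligand apela. Of 12 tested mesoderm and margin genes, 8 rose and 1 fell, with a median log2 fold change of 6.48 (6.48 with genes absent at 2.25 hpf set to their bound) beside 0.00196 over all genes tested; 7 of the 12 passed the filter only through 5.25 hpf embryos. aplnra, an apelin receptor, had 32.3, 77.3 and 91.5 CPM at 5.25 hpf, against 0 counts in each embryo at 2.25 hpf (at least 167-fold higher, adjusted p = 4.31e-09). aplnrb is the other receptor gene. It had 45.1, 90.7 and 150.0 CPM at 5.25 hpf, against 0, 0.0460 and 0.158 CPM at 2.25 hpf (ratio 5.25 over 2.25 hpf of 1348, 95% counting interval 461 to 6540, adjusted p = 2.61e-11). Both were at 1 count or fewer in every 2.25 hpf embryo. In the Fgf and immediate-early list 12 of 18 tested genes rose, beside 9.4% of all genes tested (median log2 fold change 3.18 beside 0.00196). Of the 18, 5 passed the filter only through 5.25 hpf embryos. The level of fgf17, an Fgf ligand, was 58.1, 96.8 and 132 CPM at 5.25 hpf and 0, 0 and 0.0919 CPM at 2.25 hpf (ratio 5.25 over 2.25 hpf of 4312, 95% counting interval 773 to 170400, adjusted p = 2.57e-13). DUSP6 is a phosphatase that limits the MAP kinase response to Fgf. Levels were 83.7, 101 and 142 CPM at 5.25 hpf, against 0, 0.121 and 0.889 CPM at 2.25 hpf (log2 fold change 9.07 ± 0.38, adjusted p = 1.83e-11). mych, a Myc family gene, had 404, 512 and 727 CPM at 5.25 hpf, against 20.3, 29.7 and 52.3 CPM at 2.25 hpf (log2 fold change 4.23 ± 0.23, adjusted p = 5.90e-10). The last of these had a maternal level above 20 CPM in each embryo, and none of the 3 overlapped between stages.

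Wnt genes were mixed: 3 of 7 tested genes rose and 1 fell (median log2 fold change 0.64, beside 0.00196 over all genes tested). Of the 7, 2 passed the filter only through 5.25 hpf embryos, which fixes their direction, and 1 of the other 5 rose. wnt11f2, a Wnt ligand of cell movement, had 80.5, 126 and 137 CPM at 5.25 hpf, against 0.154, 0.422 and 1.43 CPM at 2.25 hpf (log2 fold change 7.75 ± 0.27, adjusted p = 1.76e-12). AXIN2 is a negative regulator that Wnt itself switches on. It had 22.8, 43.9 and 51.7 CPM at 5.25 hpf, against 102, 138 and 181 CPM at 2.25 hpf (log2 fold change -1.74 ± 0.16, adjusted p = 3.66e-07). The groups did not overlap for either gene, in opposite directions. The level of CTNNB1, β-catenin, was 229, 368 and 530.1 CPM at 5.25 hpf and 103, 156 and 198 CPM at 2.25 hpf (log2 fold change 1.25 ± 0.20, adjusted p = 8.73e-05). The paralogue ctnnb2 had 372, 477 and 683 CPM at 5.25 hpf against 190.3, 354 and 431 CPM at 2.25 hpf, overlapping and short of the fold threshold (log2 fold change 0.60 ± 0.18, adjusted p = 0.0101). Neural plate genes rose in 6 of 8 tested cases, beside 9.4% of all genes tested (median log2 fold change 6.96 beside 0.00196). Of the 8, 4 passed the filter only through 5.25 hpf embryos. her5 is a Hairy-related repressor. Levels were 108, 131 and 169 CPM at 5.25 hpf, against 0, 0 and 0.643 CPM at 2.25 hpf (log2 fold change 9.32 ± 0.42, adjusted p = 3.64e-11). It separated the stages in every embryo.

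**Figure D3:**
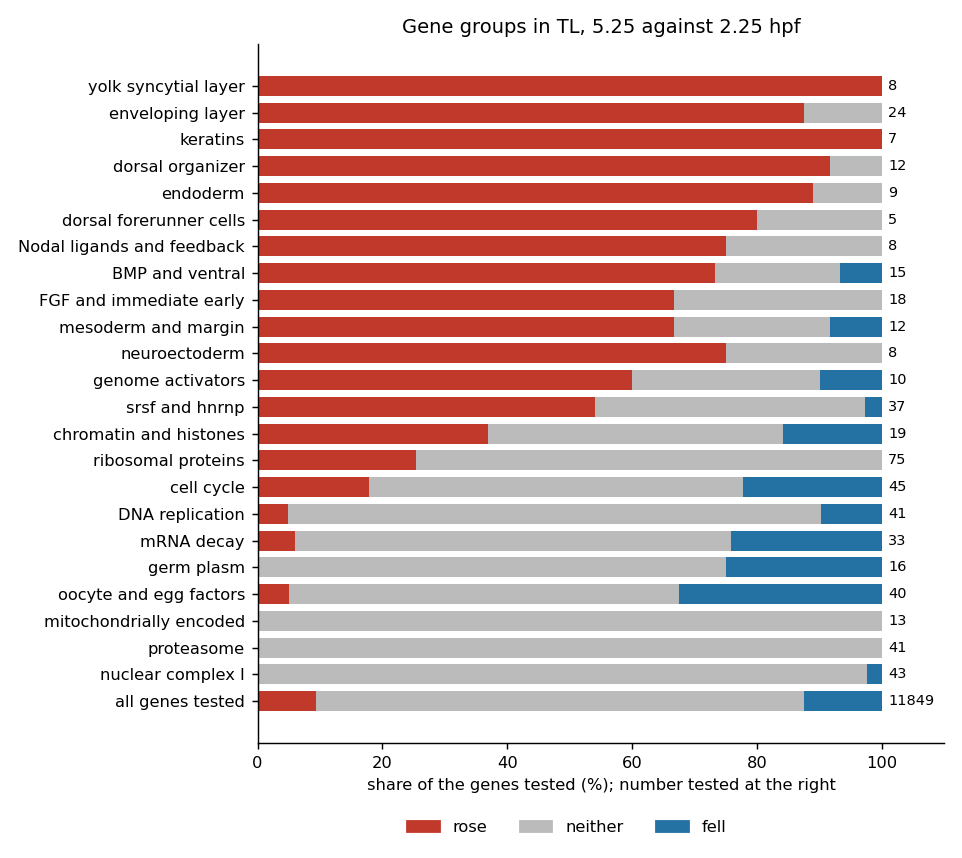
Share of the tested genes of each list, in percent, that rose, passed neither call or fell from 2.25 to 5.25 hpf in TL, with the number tested at the right. All 8 tested yolk syncytial layer genes and 21 of 24 enveloping layer genes rose, while 13 of 40 oocyte and egg factors fell. Over all genes tested 9.4% rose and 12.4% fell. Only through 5.25 hpf embryos did 4 of the 8 and 14 of the 24 pass the count filter, which fixes their direction.

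The enveloping layer is the outermost epithelium of the embryo. Of its markers, 21 of 24 tested rose; the median log2 fold change was 7.39 (5.97 with genes absent at 2.25 hpf set to their bound), beside 0.00196 over all genes tested, and 14 of the 24 passed the filter only through 5.25 hpf embryos. The summed level of the list was 1419 ± 156 CPM at 2.25 hpf, 1669 ± 180.0 CPM at 3.25 hpf, 2217 ± 188 CPM at 4.25 hpf and 8014 ± 3046 CPM at 5.25 hpf. klf17, a Krüppel-like factor of this layer, had 122, 162 and 192 CPM at 5.25 hpf, against 0, 0.352 and 0.618 CPM at 2.25 hpf (log2 fold change 8.90 ± 0.29, adjusted p = 6.46e-13). grhl3 is a Grainyhead factor of epidermal differentiation. It had 279, 399.7 and 429 CPM at 5.25 hpf, against 0.114, 0.376 and 0.667 CPM at 2.25 hpf (log2 fold change 9.96 ± 0.26, adjusted p = 6.32e-14). These regulators were tight between embryos at 5.25 hpf, and neither overlapped its 2.25 hpf range.

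Structural genes followed with wide ranges. krt8, a type II keratin, had 725, 1865 and 3965 CPM at 5.25 hpf, against 1.56, 2.85 and 14.4 CPM at 2.25 hpf (log2 fold change 8.48 ± 0.66, adjusted p = 3.73e-08). The level of krt18a.1, its type I partner, was 645, 1640 and 2628 CPM at 5.25 hpf and 0, 0.114 and 1.29 CPM at 2.25 hpf (log2 fold change 11.89 ± 0.38, adjusted p = 4.54e-13). krt4 is a type II keratin of surface epithelium. It had 326, 696 and 1214 CPM at 5.25 hpf, against 0, 0.523 and 1.24 CPM at 2.25 hpf (log2 fold change 10.43 ± 0.45, adjusted p = 2.61e-11). For krt4 the 3 lowest 5.25 hpf embryos were embryos 4 to 6, at 326 to 406 CPM in biological replicate 2, against 986 to 1214 CPM in biological replicate 1. The same order stood at 4.25 hpf, with krt4 at 3.83, 4.44 and 4.98 CPM in replicate 2 and at 62.9, 68.0 and 85.0 CPM in replicate 1, while at 2.25 hpf all 6 embryos were at 1.24 CPM or less. krt5, krt8, krt18a.1 and evpla likewise had every replicate 2 embryo below every replicate 1 embryo at 5.25 hpf, and none of them was among the genes that passed the test of a replicate difference given at the end. evpla is envoplakin, a protein of the cornified cell border. Levels were 1.99, 19.3 and 60.4 CPM at 5.25 hpf, against 0 counts in each embryo at 2.25 hpf (at least 56.6-fold higher, adjusted p = 6.03e-08). All 7 tested keratin genes of 20 with that symbol rose, beside 9.4% of all genes tested. Of the 7, 6 passed the filter only through 5.25 hpf embryos, which fixes their direction.

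Adhesion genes of the same epithelium began from a maternal level: epcam had 616, 800.0 and 941 CPM at 5.25 hpf against 464, 738 and 876 CPM at 2.25 hpf and did not pass the test (log2 fold change 0.22 ± 0.16, adjusted p = 0.301). cdh1, E-cadherin, had 313, 367 and 465 CPM at 5.25 hpf, against 132, 194 and 218 CPM at 2.25 hpf (log2 fold change 1.02 ± 0.14, adjusted p = 2.23e-05). The cdh1 call was at the threshold and ended in 4 leave-out settings, with log2 fold changes of 0.91 without TL 2.25 hpf embryo 1, 0.996 without TL 2.25 hpf embryo 5, 0.97 without TL 5.25 hpf embryo 3 and 0.91 without biological replicate 1; with library totals only it was 0.79. Claudins, the barrier proteins of tight junctions, changed in both directions. cldne, a claudin of the surface layer, had 116, 203 and 371 CPM at 5.25 hpf, against 0, 0 and 0.128 CPM at 2.25 hpf (ratio 5.25 over 2.25 hpf of 10420, 95% counting interval 1871 to 411800, adjusted p = 1.70e-13). cldnd is an abundant maternal claudin. It had 685, 865 and 1315 CPM at 5.25 hpf, against 2000, 2179 and 2687 CPM at 2.25 hpf (log2 fold change -1.30 ± 0.14, adjusted p = 1.98e-06). The level of cldng, another maternal claudin, was 713, 935 and 1240 CPM at 5.25 hpf and 2016, 2167 and 2938 CPM at 2.25 hpf (log2 fold change -1.23 ± 0.16, adjusted p = 1.46e-05). Within each of these the stages did not overlap. Over all 18 tested claudins 9 rose and 3 fell, beside 9.4% and 12.4% of all genes tested, and 6 of the 18 passed the filter only through 5.25 hpf embryos.

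The yolk syncytial layer is a multinucleate sheet that feeds and patterns the blastoderm. Each of 8 tested markers rose, out of 19 matched (median log2 fold change 8.46 (7.11 with genes absent at 2.25 hpf set to their bound), beside 0.00196 over all genes tested), and 4 of the 8 passed the filter only through 5.25 hpf embryos. mxtx2, a homeobox factor that specifies this layer, had 168, 226 and 269 CPM at 5.25 hpf, against 0, 0.203 and 0.343 CPM at 2.25 hpf (ratio 5.25 over 2.25 hpf of 1069, 95% counting interval 563 to 2339, adjusted p = 4.32e-14). apoeb is an apolipoprotein. It had 450.3, 619.7 and 954 CPM at 5.25 hpf, against 0, 0.766 and 2.16 CPM at 2.25 hpf (log2 fold change 9.39 ± 0.43, adjusted p = 5.13e-11). The level of marcksl1b, a membrane-bound regulator of actin, was 1315, 1984 and 2962 CPM at 5.25 hpf and 19.9, 28 and 37.6 CPM at 2.25 hpf (log2 fold change 6.24 ± 0.20, adjusted p = 5.20e-13). The last of these was at 19.9 CPM or more in every 2.25 hpf embryo, and all of them separated the stages. HNF4A is a nuclear receptor of lipid metabolism. Levels were 12.6, 31.6 and 76 CPM at 5.25 hpf, against 0, 0.0792 and 0.667 CPM at 2.25 hpf (ratio 5.25 over 2.25 hpf of 302, 95% counting interval 138 to 825, adjusted p = 6.84e-09). SLC26A1, an anion exchanger, had 1.83, 8.29 and 17.3 CPM at 5.25 hpf against 0 counts in each embryo at 2.25 hpf (at least 20.5-fold higher, adjusted p = 1.06e-06).

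**Figure D4:**
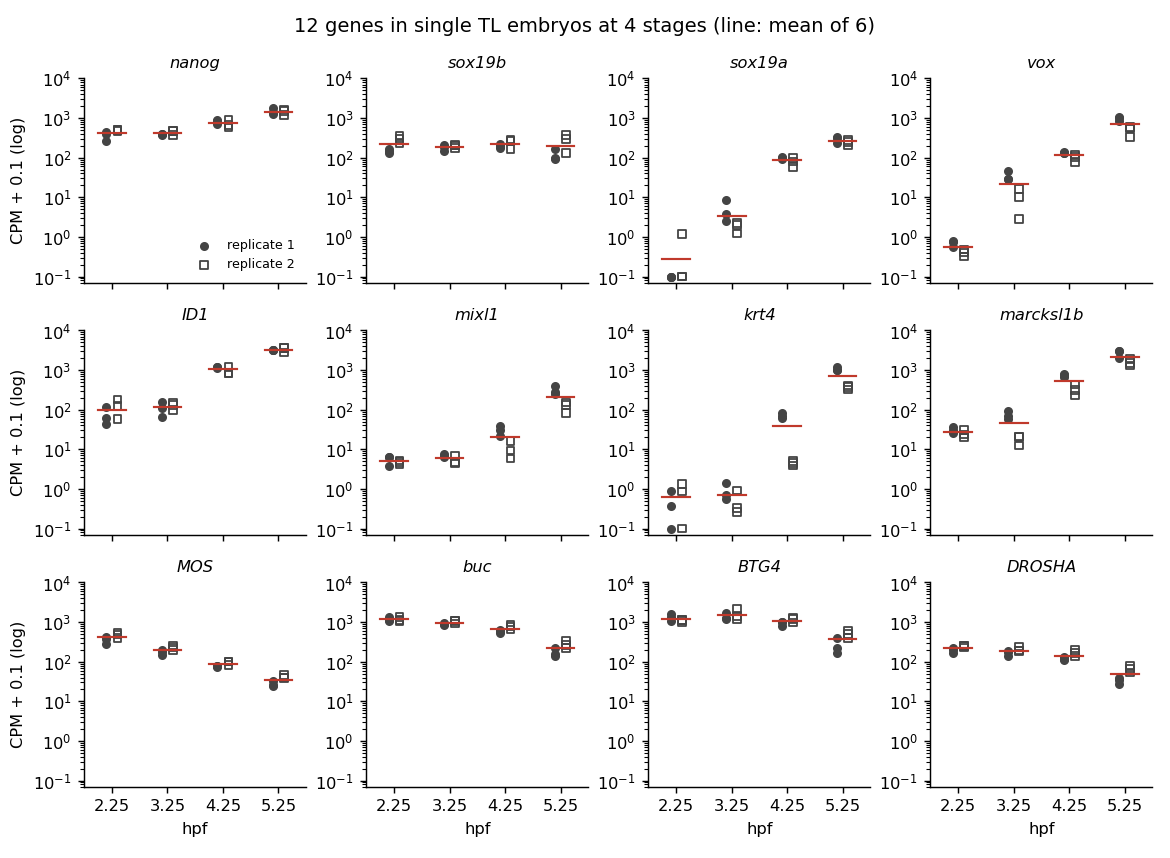
Level of 12 genes in each TL embryo at the 4 stages in hpf, as CPM + 0.1 on a log scale. Points are embryos, marked by biological replicate, and the short line at each stage is the mean of 6. Values of krt4 at 5.25 hpf are 326 to 406 CPM in replicate 2, below all 3 embryos of replicate 1.

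Genes with a high maternal level also gained, by smaller folds. The 5 risen genes with the highest level at 5.25 hpf were hnrnpa0l, cirbpa, zgc:100951, PNRC2 and HNRNPA1L2. hnrnpa0l, an hnRNP that binds AU-rich RNA, had 4199, 6410 and 8590 CPM at 5.25 hpf, against 1956, 2137 and 3079 CPM at 2.25 hpf (log2 fold change 1.5 ± 0.19, adjusted p = 7.76e-06). PNRC2 is a cofactor of mRNA decapping in human cells. It had 2983, 4107 and 4732 CPM at 5.25 hpf, against 809.5, 904 and 1033 CPM at 2.25 hpf (log2 fold change 2.14 ± 0.12, adjusted p = 8.50e-10). The level of zgc:100951, a gene known here by its clone name, was 3205, 4237 and 6187 CPM at 5.25 hpf and 1.11, 1.48 and 3.33 CPM at 2.25 hpf (log2 fold change 11.33 ± 0.24, adjusted p = 8.82e-15). zgc:100951 went against the pattern of the other 4, being near 0 at 2.25 hpf in TL, whereas AB embryos averaged 28.85 ± 27.8 CPM (SD) there. None of the 5 overlapped between stages in TL. Among SR proteins and hnRNPs, the RNA-binding regulators of splicing, 20 of 37 tested genes rose and 1 fell (median log2 fold change 1.06, beside 0.00196 over all genes tested), with 15 risen under library totals only and 13 without biological replicate 1. Of 75 tested ribosomal protein genes 19 rose (25.3%, beside 9.4% of all genes tested). All 75 lay between 0.44 and 1.47 on the log2 scale. With library totals only 1 rose, and without biological replicate 1 or 2 the count was 11 or 26.

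Chromatin genes rose in 7 and fell in 3 of 19 tested cases (median log2 fold change 0.60, beside 0.00196 over all genes tested), and all 19 passed the filter in a 2.25 hpf embryo. h3f3a, a replication-independent histone H3.3 gene, had 2216, 3262 and 4124 CPM at 5.25 hpf, against 600.5, 660.2 and 957 CPM at 2.25 hpf (log2 fold change 2.17 ± 0.16, adjusted p = 1.73e-08). hmga1a is an AT-hook chromatin protein. It had 1916, 2520 and 4024 CPM at 5.25 hpf, against 452, 802 and 876 CPM at 2.25 hpf (log2 fold change 1.90 ± 0.20, adjusted p = 1.38e-06). The level of h2az2b, a histone H2A.Z gene, was 1081, 1216 and 1803 CPM at 5.25 hpf and 284, 455 and 497 CPM at 2.25 hpf (log2 fold change 1.70 ± 0.17, adjusted p = 5.79e-07). For each of them the stages did not overlap, with 284 CPM or more in every 2.25 hpf embryo. The maternal linker histone h1m had 3174, 3827 and 5582 CPM at 5.25 hpf against 2250, 2926 and 4167 CPM at 2.25 hpf, with overlapping ranges (log2 fold change 0.41 ± 0.17, adjusted p = 0.0598). DNMT1 is the maintenance DNA methyltransferase. Levels were 166, 252 and 379 CPM at 5.25 hpf, against 491, 919.6 and 945 CPM at 2.25 hpf (log2 fold change -1.66 ± 0.17, adjusted p = 7.09e-07). RBBP4, a histone chaperone of several chromatin complexes, had 129, 149 and 218 CPM at 5.25 hpf, against 360.2, 366 and 420.3 CPM at 2.25 hpf (log2 fold change -1.20 ± 0.13, adjusted p = 1.50e-06). Both of these fell with no overlap.

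Among the 10 largest falls with a symbol were NKAIN4, BHLHE23, mtnr1aa, si:ch211-136m16.8, DCK, NFE2L2, MOS, si:dkeyp-82a1.8 and zfpm2b. Most of these were scarce even at 2.25 hpf: of the genes just named, only MOS had a median above 100 CPM there. MOS, the kinase that holds the vertebrate egg in meiotic arrest, had 24.1, 36 and 45.9 CPM at 5.25 hpf, against 282, 405 and 542 CPM at 2.25 hpf (log2 fold change -3.56 ± 0.15, adjusted p = 2.74e-11). The fall of MOS was spread over the interval, with mean levels of 416, 200.5, 85.9 and 34.7 CPM from 2.25 to 5.25 hpf in steps of 1 h. The level of NFE2L2, the oxidative stress factor Nrf2, was 0, 0.268 and 0.505 CPM at 5.25 hpf and 1.94, 3.0 and 7.92 CPM at 2.25 hpf (ratio 2.25 over 5.25 hpf of 12.4, 95% counting interval 6.37 to 27.6, adjusted p = 1.92e-04). The 2.25 and 5.25 hpf ranges were separate in each of these genes, and the call of si:dkeyp-82a1.8 ended without biological replicate 1 (log2 fold change -2.07). NKAIN4 had 0, 0 and 0.304 CPM at 5.25 hpf, against 2.0, 3.72 and 7.13 CPM at 2.25 hpf (ratio 2.25 over 5.25 hpf of 129, 95% counting interval 22.8 to 5116, adjusted p = 1.81e-06). The symbol NKAIN4 is shared by more than 1 ID, so this value belongs to the ID ENSDARG00000042961 alone.

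Among germ plasm genes, buc and DAZL fell while DDX4 stayed short of the fold threshold and NANOS3 did not pass the test. Of 16 tested, 4 fell (median log2 fold change -0.65, beside 0.00196 over all genes tested; with library totals only 8 fell). buc, Bucky ball, which organizes germ plasm, had 138, 217 and 346 CPM at 5.25 hpf, against 1053, 1118 and 1348 CPM at 2.25 hpf (log2 fold change -2.39 ± 0.18, adjusted p = 2.41e-08). buc2l is a gene of the same family by name. It had 50.6, 75.1 and 124 CPM at 5.25 hpf, against 496, 535 and 641 CPM at 2.25 hpf (log2 fold change -2.67 ± 0.20, adjusted p = 2.26e-08). The level of DAZL, an RNA-binding protein of germ cells, was 32.8, 81.3 and 102 CPM at 5.25 hpf and 302, 325 and 368 CPM at 2.25 hpf (log2 fold change -2.13 ± 0.23, adjusted p = 1.72e-06). Each of these was below every 2.25 hpf value at 5.25 hpf, in all 6 embryos. DDX4, the germ cell helicase Vasa, had 75.3, 91.9 and 129.6 CPM at 5.25 hpf against 59.2, 74.4 and 98.5 CPM at 2.25 hpf (log2 fold change 0.39 ± 0.16, adjusted p = 0.0491). NANOS3, a translational repressor kept in germ cells, had 287, 449.8 and 546 CPM at 5.25 hpf against 294, 415 and 469 CPM at 2.25 hpf (log2 fold change 0.12 ± 0.17, adjusted p = 0.605), and its sign turned to -0.10 with library totals only. Both pairs of ranges overlapped.

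Oocyte and egg factors fell in 13 of 40 tested cases and rose in 2, with a median log2 fold change of -0.86 beside 0.00196 over all genes tested; with library totals only, 21 fell and 1 rose. BTG4, an adaptor of the deadenylase complex needed for maternal mRNA decay in the mouse, had 169, 401 and 610.1 CPM at 5.25 hpf, against 1013, 1122 and 1610 CPM at 2.25 hpf (log2 fold change -1.69 ± 0.25, adjusted p = 4.55e-05). org is named oogenesis-related gene. It had 291, 349 and 423 CPM at 5.25 hpf, against 913, 1144 and 1372 CPM at 2.25 hpf (log2 fold change -1.68 ± 0.13, adjusted p = 2.16e-08). The level of bmp15, a growth factor of the oocyte, was 47.7, 93.3 and 130.2 CPM at 5.25 hpf and 221, 296 and 346 CPM at 2.25 hpf (log2 fold change -1.68 ± 0.22, adjusted p = 1.11e-05). All 3 fell below their 2.25 hpf range in every 5.25 hpf embryo. PABPC1L is the embryonic poly(A)-binding protein. Levels were 48.6, 57.7 and 67.6 CPM at 5.25 hpf, against 122, 139 and 177 CPM at 2.25 hpf (log2 fold change -1.32 ± 0.14, adjusted p = 1.23e-06). slbp2, a histone stem-loop binding protein of the oocyte, had 132, 215 and 319.5 CPM at 5.25 hpf, against 570.1, 737 and 1412 CPM at 2.25 hpf (log2 fold change -2.02 ± 0.24, adjusted p = 3.96e-06). The somatic partner slbp had 183, 272 and 358 CPM at 5.25 hpf against 227, 257 and 549 CPM at 2.25 hpf, with overlapping ranges (log2 fold change -0.19 ± 0.21, adjusted p = 0.506). ZAR1L, a zygote arrest factor, did not overlap between stages, with 266, 381 and 462 CPM at 5.25 hpf against 585, 656 and 824 CPM at 2.25 hpf, but its log2 fold change of -0.87 ± 0.16 fell short of the threshold; with library totals only it was -1.09 and passed.

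Genes of mRNA decay and of small RNA processing moved in both directions. On that list 8 of 33 tested genes fell and 2 rose, a median log2 fold change of 0.22 beside 0.00196 over all genes tested, and 3 fell without biological replicate 1. DROSHA, the nuclear enzyme that cuts microRNA precursors, had 27.8, 46.4 and 77 CPM at 5.25 hpf, against 169, 228 and 254 CPM at 2.25 hpf (log2 fold change -2.17 ± 0.16, adjusted p = 2.43e-08). TNRC6A is the GW182 protein that links Argonaute to deadenylation. It had 187, 246 and 393 CPM at 5.25 hpf, against 328, 690.2 and 857 CPM at 2.25 hpf (log2 fold change -1.28 ± 0.19, adjusted p = 5.41e-05). DROSHA separated the stages, whereas the highest 5.25 hpf value of TNRC6A exceeded its lowest 2.25 hpf value. The level of YBX1, a cold-shock protein that holds maternal mRNAs, was 372, 521 and 735 CPM at 5.25 hpf and 164, 188 and 214 CPM at 2.25 hpf (log2 fold change 1.54 ± 0.16, adjusted p = 1.18e-06). elavl1a is HuR, which stabilizes AU-rich mRNAs. Levels were 455, 557 and 644 CPM at 5.25 hpf, against 197, 234 and 326 CPM at 2.25 hpf (log2 fold change 1.23 ± 0.15, adjusted p = 8.13e-06). These rose without overlap; the elavl1a call ended without biological replicate 1 (log2 fold change 0.82).

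Cell cycle control genes moved in both directions. Of 45 tested, 8 rose and 10 fell, with a median log2 fold change of 0.26 beside 0.00196 over all genes tested. The count filter was passed only through 5.25 hpf embryos by 1 of the 8 risen genes. CCND1, the G1 cyclin D1, had 979, 1276 and 1656 CPM at 5.25 hpf, against 0.257, 2.52 and 10.3 CPM at 2.25 hpf (log2 fold change 8.22 ± 0.52, adjusted p = 3.07e-09). cdkn1ca is a p57 inhibitor of cyclin-dependent kinases. It had 148, 249.7 and 267 CPM at 5.25 hpf, against 0, 1.35 and 3.43 CPM at 2.25 hpf (log2 fold change 7.22 ± 0.41, adjusted p = 7.30e-10). The level of WEE1, the kinase that restrains Cdk1, was 219, 275 and 375 CPM at 5.25 hpf and 21.9, 35.4 and 56.5 CPM at 2.25 hpf (log2 fold change 3.01 ± 0.23, adjusted p = 2.68e-08). The rises of these genes were seen in every embryo, and all were at 56.5 CPM or less at 2.25 hpf. The maternal WEE2 had 322, 405 and 468 CPM at 5.25 hpf against 259.5, 325 and 361 CPM at 2.25 hpf and stayed short of the fold threshold (log2 fold change 0.37 ± 0.11, adjusted p = 0.00908). CCNE2 is a cyclin of S phase entry. Levels were 165, 252 and 395 CPM at 5.25 hpf, against 3.77, 6.73 and 18.9 CPM at 2.25 hpf (log2 fold change 5.08 ± 0.40, adjusted p = 3.70e-08). Mitotic cyclin CCNB1 had 2249, 2507 and 2904 CPM at 5.25 hpf against 1360, 1980 and 2208 CPM at 2.25 hpf, without overlap but with a log2 fold change of 0.44 ± 0.13.

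ECT2, the exchange factor that starts cytokinesis, had 26.1, 41 and 54.3 CPM at 5.25 hpf, against 142, 179.5 and 236 CPM at 2.25 hpf (log2 fold change -2.14 ± 0.15, adjusted p = 1.09e-08). ATR is the kinase of the replication checkpoint. It had 8.41, 9.55 and 19.6 CPM at 5.25 hpf, against 22, 32 and 38.5 CPM at 2.25 hpf (log2 fold change -1.45 ± 0.23, adjusted p = 8.56e-05). The level of pkmyt1, a membrane-bound inhibitor of Cdk1, was 3.37, 7.93 and 11 CPM at 5.25 hpf and 18.7, 30.7 and 38.4 CPM at 2.25 hpf (log2 fold change -2.0 ± 0.25, adjusted p = 8.71e-06). These 3 fell without overlap. The mitotic kinase plk1 lay at the threshold, with 454, 538 and 639 CPM at 5.25 hpf against 904, 1072 and 1304 CPM at 2.25 hpf (log2 fold change -0.98 ± 0.11, adjusted p = 1.64e-06); it was not called, although leaving out TL 2.25 hpf embryo 3, 5 or 6, TL 5.25 hpf embryo 5 or biological replicate 2 gave -1.0 to -1.01, no filter on low counts gave -1.02 and library totals only gave -1.20, all called. Replication genes were near the background, with 2 risen and 4 fallen of 41 tested and a median log2 fold change of 0.07 (-0.154 with library totals only, under which 9 fell). The count filter was passed only through 5.25 hpf embryos by 1 of the 2 risen genes. MCM3 is a subunit of the replicative helicase. Levels were 39.8, 73.2 and 117 CPM at 5.25 hpf, against 0, 0.0460 and 1.08 CPM at 2.25 hpf (log2 fold change 8.11 ± 0.51, adjusted p = 2.47e-09). CDC6, a loader of that helicase, had 937, 1076 and 1490 CPM at 5.25 hpf, against 272, 454 and 481 CPM at 2.25 hpf (log2 fold change 1.48 ± 0.16, adjusted p = 1.63e-06). POLA1 is the catalytic subunit of DNA polymerase α. It had 105, 132 and 146 CPM at 5.25 hpf, against 262, 335 and 399 CPM at 2.25 hpf (log2 fold change -1.34 ± 0.14, adjusted p = 7.76e-07). MCM3 was at 0.343 CPM or less in 5 of 6 embryos at 2.25 hpf, and PCNA, the sliding clamp, had 2125, 2668 and 2975 CPM at 5.25 hpf against 1101, 1554 and 1711 CPM at 2.25 hpf without reaching the fold threshold (log2 fold change 0.88 ± 0.13, adjusted p = 4.54e-05).

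Several abundant groups stayed short of the threshold. The 13 mitochondrially encoded mRNAs had log2 fold changes between 0.04 and 0.91 (median 0.42, beside 0.00196 over all genes tested), and MT-CO2 was called without biological replicate 1 (log2 fold change 1.05). MT-CO1, a subunit of cytochrome c oxidase, had 5781, 6883 and 7137 CPM at 5.25 hpf against 2860, 3693 and 4655 CPM at 2.25 hpf (log2 fold change 0.91 ± 0.13, adjusted p = 2.31e-05). The 41 tested proteasome genes had log2 fold changes between -0.58 and 0.92, and of 43 nuclear complex I genes 1 fell, or 5 with library totals only. A call needs both the p and the fold, so genes outside it are not shown to be constant: over all genes tested, 5321 had an adjusted p under 0.05, of which 2668 were higher and 2653 lower at 5.25 hpf.

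The steps between stages, tested in all 24 TL embryos and over 13022 genes, placed most of the change late. At 3.25 hpf, 69 genes were higher (0.53%) and 3 lower (0.023%) than at 2.25 hpf, or 0.553% called. The step to 4.25 hpf gave 482 higher (3.7%) and 88 lower (0.676%), or 4.38% called. In the step to 5.25 hpf, 844 were higher (6.48%) and 840 lower (6.45%), or 12.9% called. These counts rested in part on biological replicate 1: without it the steps gave 9, 244 and 994 calls, and without replicate 2 they gave 64, 668 and 2152. Of the 1114 genes risen over the span, 61 were first called in the step to 3.25 hpf, 349 in the step to 4.25 hpf and 360 in the step to 5.25 hpf, and 344 in no single step. Of the 1475 fallen genes, 1, 64 and 645 were first called in those steps and 765 in none. The steps share their end embryos with the span, so the end steps are not independent of the choice of genes; the median step of the fallen genes was -0.10, -0.43 and -0.99 on the log2 scale and of the risen genes 0.15, 0.76 and 1.37. The last step was the largest for 1245 fallen and 709 risen genes.

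Comparing the end stages alone leaves out part of the change. Of 13022 genes tested in the steps, 14 rose in a step and fell in another, 2 of these 14 being called over the span too. A further count, 389 genes, were called in a step but not over the span. The steps were tested over 13022 genes and the span over 11849. Genes that the span did not test were counted as not called, so the 389 mix the count filter with change that the end stages miss. Precursor genes of miR-430, the microRNA family that targets maternal mRNAs for decay, were represented by 47 IDs, of which 6 were detected in TL; near-identical copies make the split between them uncertain. Their summed level was 0.0344 ± 0.0537 CPM at 2.25 hpf, 9.41 ± 4.79 CPM at 3.25 hpf, 3.17 ± 1.26 CPM at 4.25 hpf and 2.80 ± 1.97 CPM at 5.25 hpf (SD, n = 6 each). The lowest 3.25 hpf embryo, at 3.55 CPM, was above the highest 2.25 hpf embryo, at 0.114 CPM. CEL-seq2 reads poly(A) RNA, so these values count precursors and not mature microRNA. Among the 14 was tmprss15, with mean CPM of 17.0, 1.19, 29.6 and 0.72 from 2.25 to 5.25 hpf in steps of 1 h. Different embryos were lysed at each stage, so these means do not follow single embryos over time. This gene was chosen after its values were seen.

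AB embryos, which did not enter the TL test, shared most of these calls. In AB 2628 of 12099 tested genes changed (21.7%), with 1155 higher (9.55%) and 1473 lower (12.2%) at 5.25 hpf. Of 1026 genes risen in TL and tested in AB, 810 were called higher in AB too, which is 78.9% of the TL genes and 80.0% of the AB genes tested in TL. Of 1430 genes fallen in TL and tested in AB, 1016 were called lower in AB, or 71.0% of the TL genes and 72.6% of the AB genes. A single gene, ALKBH2, was called in opposite directions, with a log2 fold change of 1.39 in TL (adjusted p = 0.0467) and -1.08 in AB (adjusted p = 0.0147), and it did not pass the test of the difference (adjusted p = 0.103). The difference between the strains' changes was therefore tested itself.

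The change differed between TL and AB in 46 of 13380 tested genes (0.344%; 1081 had an unadjusted p under 0.05). Of these, 22 (0.164%) differed towards TL and 24 (0.179%) towards AB. Among genes named above, zgc:100951, hmgn6 and wnt11f2 differed towards TL, and NKAIN4 and tmprss15 towards AB. With no replicate block the test called 25 genes, without biological replicate 1 it called 1, which was not among the 46, and without replicate 2 it called 8, of which 6 were. znfl2a, a zinc finger gene, averaged 113 ± 58.9 CPM at 5.25 hpf and 1.39 ± 0.805 CPM at 2.25 hpf in TL, against 89.8 ± 41.6 CPM and 14.3 ± 3.15 CPM in AB (log2 difference 3.62 ± 0.44, adjusted p = 1.02e-04; SD, n = 6 each). The gap lay at 2.25 hpf, where AB embryos already held more. tmsb4x, a thymosin that binds actin monomers, averaged 242 ± 82.1 CPM and 15.2 ± 6.66 CPM in TL at those stages, against 294 ± 137 CPM and 137 ± 32.4 CPM in AB (log2 difference 3.01 ± 0.38, adjusted p = 1.02e-04). igsf3l showed the reverse, with 7.82 ± 3.92 CPM and 9.16 ± 3.99 CPM in TL, against 24.4 ± 19 CPM and 0.253 ± 0.255 CPM in AB (log2 difference -6.68 ± 0.83, adjusted p = 1.02e-04). In TL its change over the span did not pass the test, whereas in AB it began near 0. The TL level was not steady, with means of 2.80 CPM at 3.25 hpf and 1.72 CPM at 4.25 hpf. Its last TL step was a called rise (log2 fold change 2.13, adjusted p = 8.14e-04 by the quasi-likelihood test).

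Replicates 2 and 1 of TL were compared in the same way, by a term for stage within replicate. The change differed in 4 of 11849 tested genes (0.0338%), while 1191 had an unadjusted p under 0.05. All 4 had a lower log2 fold change in replicate 2 than in replicate 1. For ENSDARG00000105816 the sign turned as well, with a log2 fold change of -0.5205 without replicate 1 and 2.97 without replicate 2. The direction also turned for ACER1. Its 5.25 hpf values lay below all 2.25 hpf values in replicate 2 and above all of them in replicate 1. styk1b, a kinase-like gene, held 3.35, 3.92 and 8.77 CPM at 5.25 hpf in replicate 2 and 52.2, 86.6 and 103 CPM in replicate 1, against at most 1.39 CPM in every 2.25 hpf embryo (log2 difference -7.43 ± 0.86, adjusted p = 0.00432). her8a, a Hairy-related repressor, had 33.2, 38.9 and 39.2 CPM at 5.25 hpf in replicate 2 and 31.6, 50.4 and 51.3 CPM in replicate 1, but at 2.25 hpf 6.67, 13.6 and 15.9 CPM in replicate 2 and 0 to 1.11 CPM in replicate 1 (log2 difference -5.11 ± 0.75, adjusted p = 0.0254). The her8a gap was thus at the early stage. The styk1b levels were apart at 5.25 hpf, but by less than its log2 difference, so levels near 0 at 2.25 hpf also entered that value. All 2589 changed genes had the same sign in both replicates, which both entered the test that chose them. Their size differed: the median log2 fold change of the risen genes was 1.97 in replicate 2 and 2.64 in replicate 1, and that of the fallen genes -1.30 and -1.66 in the same order, with 812 of 1114 and 1132 of 1475 genes moving further in replicate 1. The labels give each replicate sequencing runs of its own, and the part of the runs in this difference was not tested.

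**Figure D5:**
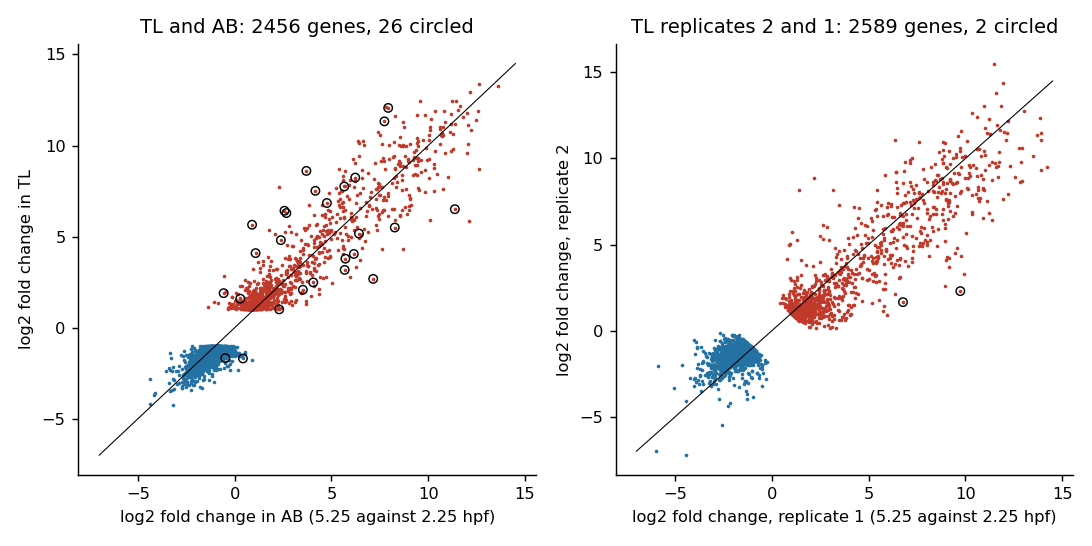
Log2 fold change from 2.25 to 5.25 hpf of the genes changed in TL, with TL against AB on the left (2456 genes) and replicate 2 against replicate 1 on the right (2589 genes); the line marks equal change. Circled genes, 26 on the left and 2 on the right, passed the test of the difference.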

How the data were processed

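Single TL and AB embryos were profiled by CEL-seq2, and the deposited tables hold raw read counts per Ensembl gene ID, 32520 IDs for 48 embryos; the submitters' processing notes name bcl2fastq 2.19.0.316, STAR 2.7.1a and edgeR 3.26.8. The genome build, the annotation, strand handling and the use of molecular identifiers are not given in the sources used here, so intervals and floors cover counting error only and overlapping or antisense genes cannot be told apart. Symbols were matched by ID for 29201 IDs, of which 6314 share a symbol, and are spelled as in that table. ENSDARG00000080337 was removed, counts were scaled with TMM factors, and genes were kept by filterByExpr (10 counts, equal to 1.562 CPM, in at least 6 embryos). The span was fitted with glmQLFit and glmQLFTest (edgeR 4.0.16, R 4.3.3) on the 12 embryos with biological replicate as a block; the steps, AB, strain difference and replicate difference were fitted likewise. Where no embryo of the lower stage had any counts, the fold change is a bound against 3 counts per library. Where that stage had counts but never more than 3 in an embryo, the ratio of summed counts is given. The replicate numbers come from the labels, and deviations of same-numbered replicates at 5.25 and 2.25 hpf correlated at r = 0.195 across genes.

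Named genes were the 10 largest rises and falls among genes averaging 20 counts or more in their higher stage, the 5 most abundant of each direction, list and pair members with the highest level or change, and up to 6 genes per difference test; some of these are not reported here. Members and lists were chosen with earlier results of these data known. Alternatives were other scalings, filters and tools (DESeq2 1.42.0), thinning to equal depth, sums of 3 embryos, no block, and leaving out embryos or replicates.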

Additional observations from a re-analysis of the deposited data

Results flagged for a closer look

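In 15 of 275 groups of 6 embryos, a single embryo lay apart from the other 5 by Dixon's test. The groups were genes with more than 3 counts in an embryo and, for each stage, library measures such as total counts. Chance gives about 1 in 20 for normally spread values, which does not hold for genes near 0 counts. Where 5 embryos are at 0, as for sox19a and GATA3 below, the remaining embryo is always flagged. At 5.25 hpf, mtnr1aa stood at 2.74 CPM in embryo 4 (others 0.137 to 0.911). In the same stage, admp stood at 101 CPM in embryo 6 (others 49.9 to 68.6), TBPL2 at 40.0 CPM in embryo 3 (others 69.7 to 81.7) and szl at 46.4 CPM in embryo 3 (others 5.18 to 13.5).

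At 2.25 hpf, embryo 1 had CDC6 at 272 CPM (others 429 to 481), RBBP4 at 420 CPM (others 360 to 376), GSC at 4.75 CPM (others 0.385 to 2.01) and TBPL2 at 461 CPM (others 276 to 306). Embryo 3 had buc2l at 641 CPM (others 496 to 537) and sox32 at 0.551 CPM (others 0 to 0.154). Embryo 4 had DUSP6 at 0.89 CPM (others 0 to 0.184) and mych at 52.3 CPM (others 20.3 to 30.9). Embryo 6 had sox19a at 1.08 CPM and GATA3 at 0.927 CPM, both at 0 in the others, and MCM3 at 1.08 CPM (others 0 to 0.343). The calls of these genes held without the embryo named.

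The change over the span differed between TL and AB, as TL minus AB on the log2 scale, by 3.62 for znfl2a, -6.68 for igsf3l, 3.01 for tmsb4x, 7.38 for syn1, 2.08 for zgc:64022 and 6.96 for znf1138. The sizes for syn1 and znf1138 are not measured folds, since TL embryos were at or near 0 at 2.25 hpf. That of igsf3l likewise rests on AB embryos near 0 at that stage. For syn1, which was too low for the TL test, TL embryos averaged 5.21 ± 3.32 CPM at 5.25 hpf and 0 CPM at 2.25 hpf, against 3.53 ± 1.23 CPM and 2.41 ± 1.54 CPM in AB (SD, n = 6 each). For znf1138, TL embryos averaged 8.23 ± 4.11 CPM and 0.0264 ± 0.0647 CPM at those stages, against 0.286 ± 0.365 CPM and 0.204 ± 0.195 CPM in AB.

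Between replicates, as replicate 2 minus 1 on the log2 scale, the change differed by -7.43 for styk1b, -4.64 for ACER1, -5.11 for her8a and -3.49 for ENSDARG00000105816. ACER1, a ceramidase, held 0.653 to 1.52 CPM in replicate 2 and 22.7 to 36.5 CPM in replicate 1 at 5.25 hpf, and 1.54 to 4.02 CPM in replicate 2 and 3.09 to 3.59 CPM in replicate 1 at 2.25 hpf.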

How the results depend on the processing

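The 1114 rises and 1475 falls became 1889 and 1525 with DESeq2, and 1977 and 1738 with no filter on low counts, where more genes were tested. Without the fold threshold the calls were 5321, 2668 higher and 2653 lower. Other settings kept the count within 1.5 times: 2941 with library totals only (867 higher, 2074 lower), 2558 with median-ratio size factors, 2326 thinned to equal depth, 2483 from sums of 3 embryos, 2587 with the abundant ID in totals and 2569 with at least 10 counts in 6 embryos. Leaving out embryos or a biological replicate gave 1832 to 3247 changed genes, 860 to 1583 risen and 972 to 1664 fallen; the lowest 3 counts came without biological replicate 1, and 1667 of the 1832 genes were among the 2589. The steps gave 9 to 64, 244 to 668 and 994 to 2152 calls, and the strain difference 1 to 8, when a replicate was left out.

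Without the replicate block, 2543 genes changed (1103 higher, 1440 lower), the steps gave 55, 528 and 1625 calls, AB gave 2564, and the strain difference fell to 25, all among the 46; a block shared by both strains gave 44. Among named genes, ACER1 was called without the block (log2 fold change 2.23, adjusted p = 0.0271) and not with it (1.203, adjusted p = 0.204); the block changed no other call.

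Of 3636 values for 152 named genes under these settings, 3582 kept their direction and their side of the threshold. Another 16 were no longer called, 33 were newly called and 5 changed sign, all 5 in genes not called over the span. A setting that did not test a gene gave no value for it, and ACER1 is not among the 5. NANOS3 was -0.10 with library totals only; left-out embryos or replicates gave NANOS3 -0.2985 to 0.5396, igsf3l -0.9039 to 0.2356, slbp -0.3003 to 0.02139 and ENSDARG00000105816 -0.5205 to 2.97. Genes that did not reach 1.562 CPM in at least 6 embryos were not tested, so the main counts leave out any change in them. With no filter on low counts, 23764 genes were tested and 3715 called, of which 2474 were among the 2589.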

Other observations

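The counts of gene families gathered by symbol stand beside 9.4% of all tested genes that rose and 12.4% that fell. Kinesins, the motors of spindle and transport, fell in 7 of 27 tested genes and rose in 1 (median log2 fold change -0.23, beside 0.00196 over all genes tested). Tubulins rose in 3 and fell in 4 of 14 tested genes, or 1 and 5 with library totals only, and 2 and 2 without biological replicate 1. Of 26 tested Forkhead genes 11 rose and 2 fell, or 9 and 1 of 25 without biological replicate 1, and 7 of the 26 passed the count filter only through 5.25 hpf embryos. Solute carriers changed near the background of all genes, with 20 of 188 risen and 18 fallen, or 32 fallen with library totals only and 13 risen without biological replicate 1. Of the 20 risen, 7 passed the count filter only through 5.25 hpf embryos. Eukaryotic initiation factors rose in 3 and fell in 5 of 63 tested genes, or 5 and 3 without biological replicate 2. Of 17 tested zona pellucida genes, which encode the egg coat, 1 fell, or 3 with library totals only.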
